A study of Bos taurus with 12 samples.

Results

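PEG10 and ZNF597 are imprinted genes, and 5 of the 7290 tiles in the authors' deposited table of bull sperm methylation carried their names, 2 for PEG10 and 3 for ZNF597. A tile is a window of 500 bp, and tiles start every 100 bp, so adjacent tiles overlap. The members were found by the gene description that accompanies each tile. In sperm of Bos taurus males, DNA methylation, read by EM-seq (sequencing after enzymes rather than bisulfite have converted the unmethylated cytosines, which then read as T), was compared between 6 low BFI and 6 high BFI samples. The labels do not spell out BFI and give no breed, age or treatment, nor do they say whether each sample is a different bull. Per the file headers, each tile has a methylation difference between the groups with its p-value and q-value. The difference was read as percentage points of methylation, called points below. The direction of subtraction is stated in no header or label, so a negative sign names no group as the less methylated. Levels, read depth and spread per sample are not in the columns analysed here, so no error or n stands beside a difference, and no source used here says whether the q-values allow for variation among bulls. None of the 19 marker genes of sperm, leukocytes, epithelium and accessory glands chosen to check cell identity had a listed tile, and the labelled cell type could not be checked.

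Genomic imprinting is the expression of a gene from 1 parental copy only, and it is kept by DNA methylation laid down in the egg or in the sperm. Most imprinted control regions receive that mark in the egg, and sperm carries them unmethylated. PEG10 is expressed from the paternal copy, most strongly in placenta, and its protein descends from the gag and pol proteins of a retrotransposon. The egg's mark covers the PEG10 promoter, which it shares with the neighbouring gene SGCE. ZNF597 encodes a zinc finger protein and lies beside NAA60, an acetyltransferase gene, and in humans this pair is imprinted, with ZNF597 expressed from the maternal copy in blood cells. Whether the listed tiles carry a level typical of sperm was not tested, because the table holds differences and no levels.

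In PEG10, both tiles had negative differences of several points, and both lay in the 3′ UTR, not at the promoter. The authors' deposited table gives -4.88 points (q = 4.31e-11) for the tile on chromosome 4 from 12071901 to 12072400. It gives -6.28 points (q = 1.10e-10) for the tile from 12072001 to 12072500, also in the authors' deposited table. Positions are those of the deposited table, for which the submitters' processing notes name assembly ARS-UCD1.2. The gene is ENSBTAG00000053735, on the plus strand, and the 3′ UTR of its transcript ENSBTAT00000080204 runs from 12071586 to 12076656. Within those 5071 bp the first tile covers bases 316 to 815 and the second bases 416 to 915, so both lie near the start of the UTR, with 4156 bp of it beyond the second tile. The tiles share 400 bp, and their values, 1.40 points apart, are not independent measurements. The tile with the larger difference had the larger q.

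Both PEG10 tiles passed a deposited q under 0.05, as did 71.8% of all listed tiles, so passing that threshold does not set PEG10 apart. Listed tiles with a negative difference at that q made up 55.9%. The size of the larger PEG10 difference, in the second tile, was less common: 763 of 7290 tiles (10.5%) differed by at least as much. The first PEG10 tile ranked 1161 by size. The median size over all listed tiles was 1.48 points in the authors' deposited table. The second tile passed 5 points, and neither reached 10 points. Of all 7290 listed tiles, 15.4% had a q under 0.05 with at least 5 points, and 2.78% with at least 10. Counting each gene by its tile of largest size, PEG10 ranked 54 of 540 genes. If the difference is taken as a difference of 2 methylation levels, the more methylated group had a level of at least 6.28% at the second tile and the other group at most 93.7%. The groups therefore cannot both have been fully methylated there, nor both fully unmethylated, though either group alone may have been at an extreme.

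**Figure D1:**
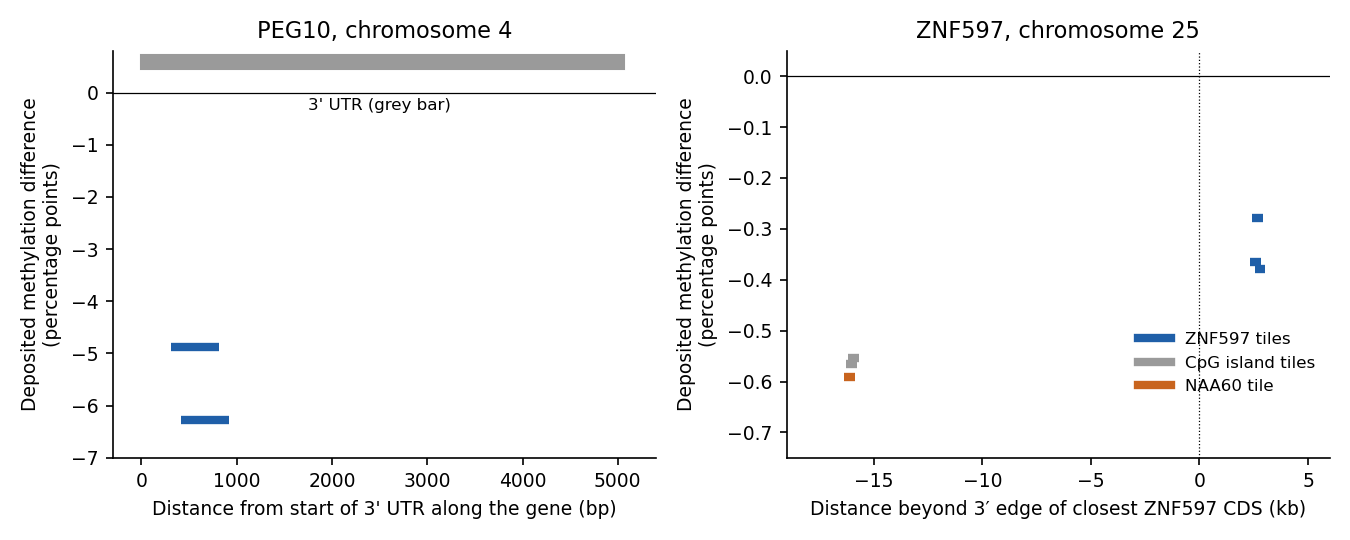
Deposited methylation difference (percentage points) of each member tile, drawn as a bar of 500 bp, against distance along the gene. Left, the 2 PEG10 tiles at -4.88 and -6.28 near the start of the 3′ UTR (grey bar). Right, the 3 ZNF597 tiles between -0.378 and -0.278 beyond the 3′ edge of the closest coding sequence (dotted line), with the CpG island and NAA60 tiles at -0.591 to -0.553 on the other side. The vertical scales of the panels differ, and the table gives no error to draw.

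Among tiles that overlapped a 3′ UTR, those of PEG10 had the most negative differences. The table lists 33 such tiles, in 10 genes, and 60.6% of them passed q under 0.05, against 71.8% of all listed tiles. The other 31 tiles, in 9 genes, ran from -4.21 to 1.65 points in the authors' deposited table, with a median of -0.763, and 18 of them passed q under 0.05. The nearest of them to PEG10 was a tile of ZNF331, also on the imprinted gene list used below, at -4.21 points in the authors' deposited table (chromosome 18, 57220001 to 57220500). The order is a description, given with no test, and it holds for tiles inside a 3′ UTR only. Another 190 tiles, in 31 loci and closest to 21 genes, had a 3′ UTR as the closest feature but lay outside it. Their median was -3.77 points and the lowest -16.1 in the authors' deposited table. With these included, 69 of 223 tiles were at least as large as the second PEG10 tile.

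**Figure D2:**
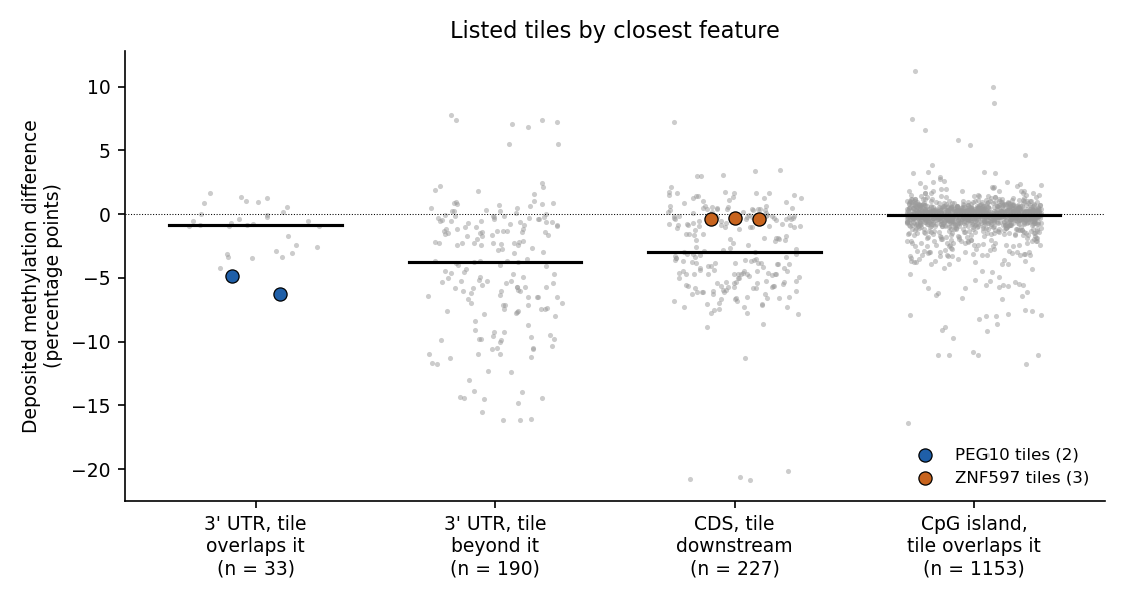
Deposited methylation difference (percentage points) of single listed tiles (grey points), grouped by closest feature, with the median of each group as a black line. The 2 PEG10 tiles lie below the other 31 tiles that overlap a 3′ UTR, and the 3 ZNF597 tiles lie above the median of -2.95 of the tiles downstream of a coding sequence.

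Around PEG10 the table was sparse. No other tile was listed within 200000 bp on either side, and none had SGCE or PPP1R9A, the next genes in the RefSeq gene order (assembly ARS-UCD2.0, used for names and order only), as its closest gene. The promoter region that PEG10 shares with SGCE was thus not among the listed tiles. On the lower side, the nearest listed tile lay 6542301 bp away in an intron of IKZF1, a lymphoid transcription factor gene. IKZF1 had 4 tiles, all positive, from 2.98 to 4.97 points in the authors' deposited table. On the higher side, the nearest was 599501 bp away in an intron of PON2, a paraoxonase gene of the same cluster, imprinted in mouse placenta. PON2 had 3 overlapping tiles, and only the first, from 12672001 to 12672500, passed, at -1.79 points (q = 0.0103) in the authors' deposited table. Its other tiles stood at -0.562 and 0.0658 points in the authors' deposited table. The PON2 values were all smaller in size than those of PEG10.

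In ZNF597, the 3 tiles had negative differences under 0.4 points in size and lay beyond the 3′ end of the gene's closest annotated coding sequence. The tile on chromosome 25 from 2852101 to 2852600 stood at -0.378 points (q = 0.00303) in the authors' deposited table. The tile from 2852201 to 2852700 stood at -0.278 (q = 0.0182), and that from 2852301 to 2852800 at -0.366 (q = 0.00980), both in the authors' deposited table. The 3 tiles share 300 bp and span 700 bp, so they are 1 locus measured with overlap. ZNF597 (ENSBTAG00000000728) is on the minus strand, and the closest feature, a coding segment of transcript ENSBTAT00000000971 from 2855140 to 2855429, lay 2340 to 2540 bp from the nearest edges of the tiles. The table classes all 3 as downstream. For each of the 577 tiles of that class outside a stranded feature, the tile lay on the feature's 3′ side, so the class was applied by strand.

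All 3 ZNF597 tiles passed a deposited q under 0.05, on a chromosome where 86.4% of listed tiles did, against 75% on chromosome 4. For the tile from 2852201 to 2852700 the q of 0.0182 lay below the p of 0.0755 in the authors' deposited table. The q lay below the p for all 3 ZNF597 tiles, as for 68.7% of all listed tiles. On chromosome 25, p-values of up to 0.191 carried a q under 0.05. With Benjamini-Hochberg adjustment recomputed from the deposited p-values over all 7290 listed tiles, 1 ZNF597 tile passed, as did 62.5% of listed tiles. Its Benjamini-Hochberg adjusted value was 0.0195, and those of the other tiles were 0.0605 and 0.109. With the adjustment made within each chromosome, an alternative chosen after seeing the data, 2 of the 3 passed, beside 62.2% of listed tiles. Both PEG10 tiles passed either adjustment, with values of 1.35e-10 and 3.61e-10 over all listed tiles. A ZNF597 difference of at most 0.378 points puts almost no bound on the level in either group. Of all listed tiles, 20.2% were as small or smaller, and by its largest tile ZNF597 ranked 413 of 540 genes.

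**Figure D3:**
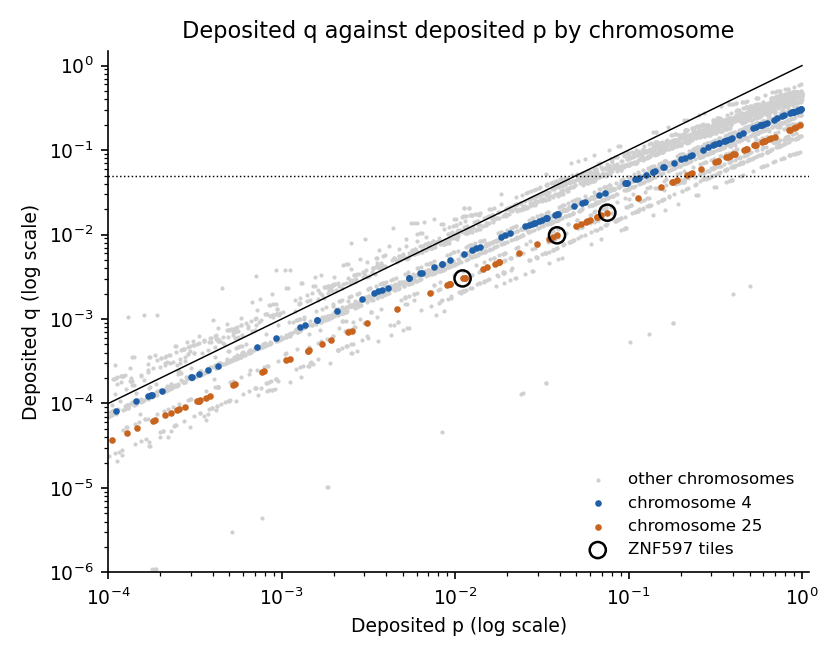
Deposited q against deposited p for listed tiles with p of at least 0.0001 and q of at least 1e-06, both axes logarithmic, with chromosomes 4 and 25 in colour and the 3 ZNF597 tiles circled. Points under the diagonal line have a q below their p, and those under the dotted line pass a q of 0.05. At equal p, chromosome 25 has lower q-values than chromosome 4.

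Compared with tiles of the same class, ZNF597 differed little between the groups. The 227 tiles downstream of a coding sequence form 36 loci, closest to 32 genes, so they are not independent measurements. Their median was -2.95 points in the authors' deposited table, and 30 of them, the ZNF597 tiles included, were no larger than the largest ZNF597 tile. On chromosome 25 the class held 10 other tiles, all closest to ENSBTAG00000023249, a gene without a name in the table. Those ran from -7.78 to -4.26 points in the authors' deposited table, at 1665 to 2765 bp from the coding sequence. At similar distances from a coding sequence, the 2 genes' values did not overlap. The 13 tiles of the class on this chromosome form only 2 loci, so this sets 1 locus beside 1 other and was not tested.

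Next to ZNF597, the start of NAA60 was listed, with differences slightly larger than those of ZNF597. NAA60 follows ZNF597 in the RefSeq gene order, and ZNF174 precedes it. A CpG island, a stretch dense in CpG sites, runs from 2870710 to 2871889, and 2 tiles inside it had -0.553 (q = 1.75e-05) and -0.565 points (q = 1.39e-05) in the authors' deposited table. The NAA60 tile from 2871001 to 2871500, classed as promoter and lying wholly in the same island, had -0.591 points (q = 8.48e-06) in the authors' deposited table. These 3 tiles begin 18001 bp from the ZNF597 tiles and share 300 bp, and all 3 were negative. Their sizes exceeded those of the 3 ZNF597 tiles without overlap, by less than 0.4 points. Tiles that overlapped a CpG island had a median difference of -0.112 and a median size of 0.464 points in the authors' deposited table (1153 tiles). Further along, ADCY9, an adenylate cyclase gene, had 4 negative tiles, of which 1 passed, at -0.459 points (q = 0.00392) in the authors' deposited table. The nearest listed tile on the lower side, 1064001 bp away near a gene for an RNA binding protein with serine rich domain, did not pass (-0.132 points in the authors' deposited table).

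Of 90 genes in a list of genes imprinted in at least 1 mammal, 6 were found in the table by their descriptions: PEG10, ZNF597, NAA60, PON2, KCNK9 and ZNF331. All 6 had at least 1 tile with q under 0.05, against 73.3% of the 540 listed genes, and the largest tile of each was negative, while 43.7% of listed genes had a passing tile and a negative largest tile. The median of their largest tiles was -2.64 points, and that of all listed genes -0.257, in the authors' deposited table. The number of tiles behind a largest tile differed, from 1 for KCNK9 to 176 for ZNF331. Over single tiles the list was not more negative, with a median of -0.974 points in the authors' deposited table. For the 3318 tiles of all listed genes that median was -1.06 points, also in the authors' deposited table. KCNK9, a potassium channel gene expressed from the maternal copy in brain, had 1 tile at -3.50 points (q = 0.000255) in the authors' deposited table, but 81569 bp from its coding sequence (chromosome 14, 3794401 to 3794900). ZNF331, a zinc finger gene, was the closest gene of 176 of the 186 tiles of the list. Of the 176 tiles, 99 passed, 91 of them negative and 8 positive. Over all listed tiles 71.8% passed, 55.9% with a negative and 15.9% with a positive difference. As shares of all its tiles, neither passing tiles nor passing negative tiles were more frequent in ZNF331 than in the table. Among passing tiles alone the negative share was higher, at 91 of 99 for ZNF331 and 4074 of 5236 over the table. The 176 tiles ranged from -5.89 to 3.47 points in the authors' deposited table. Its tiles stretched from 57181401 to 57346700 on chromosome 18, up to 37231 bp from the annotated feature, and 111 overlapped a ZNF331 feature. Without ZNF331, 8 of 10 tiles of the list passed, all negative, a share near the 71.8% of all listed tiles that passed. Of all listed tiles, 55.9% passed with a negative difference. The tiles of PEG10, of ZNF597 and of PON2 overlap within each gene, so the 10 tiles are not independent measurements. Whether reads of related zinc finger genes were placed on ZNF331 was not tested. PEG10 thus had the largest difference of the 6 genes, and ZNF597 the smallest.

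**Figure D4:**
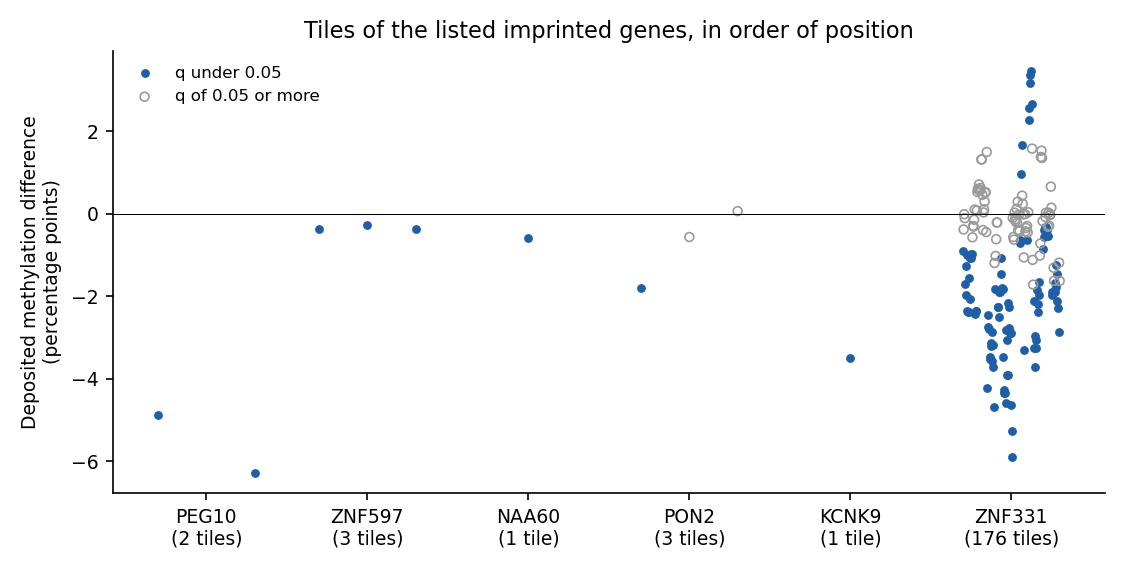
Deposited methylation difference (percentage points) of every tile of the 6 imprinted genes in the table, in order of position within each gene. Filled points passed a q under 0.05 and open points did not. PEG10 reaches -6.28, ZNF597 stays within 0.4 of zero, and ZNF331 holds tiles of both signs.

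The listed zinc finger genes gave no common sign, and PEG10 had no listed relative to compare. Of a list of 24 genes derived from transposable elements, most of them from retrotransposons, PEG10 alone had a listed tile under its name. Of 15 listed genes named as zinc finger proteins, 9 had a tile with q under 0.05, with the largest tile negative in 6 and positive in 3. Of all listed genes 73.3% had a passing tile, 43.7% with a negative and 29.6% with a positive largest tile. ZNF331, ZNF227 and ZNF398 had the most negative tiles, the last at -0.825 points in the authors' deposited table. For ZNF227 the value was -2.17 points (q = 0.00256) in the authors' deposited table, 71 bp beyond a 5′ UTR. The largest positive tiles were those of ZNF75D, ZNF814 and ZNF831. ZNF75D had 11 tiles on chromosome X, all positive and all passing, with 3.23 points (q = 1.82e-12) as the highest in the authors' deposited table. ZNF814 reached 1.33 points (q = 2.83e-10), and ZNF831, at 0.963, did not pass (q = 0.124), both in the authors' deposited table. ZNF597 was the sixth most negative of the 15. Of 22 genes that write, erase or protect methylation marks, TET2 alone was listed, with 3 positive tiles of up to 1.65 points in the authors' deposited table. TET2 oxidises 5-methylcytosine. Of those tiles, 2 passed by q and 0 by a deposited p under 0.05, which 65.8% of listed tiles had.

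By closeness of the largest tile's difference within the same feature type, over this 1 comparison, the genes nearest to PEG10 among 19 described genes whose largest tile had a 3′ UTR as closest feature were D-dopachrome tautomerase (-6.67 points), ENSBTAG00000053468, an open reading frame without a gene name (-4.69) and F-box protein 16 (-3.79), in the authors' deposited table. All 3 of these tiles lay outside the UTR, by 669 to 12230 bp. Nearest to ZNF597 among 99 such genes for coding sequence were nudix hydrolase 19 (-0.368), Zic family member 1 (-0.395) and keratin 25 (-0.412 points), in the authors' deposited table. Keratin 25 did not pass (q = 0.182 in the authors' deposited table), and the other two did.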

How the data were processed

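Sperm DNA of 12 samples (6 low BFI, 6 high BFI, grouped by title) was profiled by EM-seq. Tools named in the submitters' processing notes are Trimmomatic, Bismark and methylKit, with the builds ARS-UCD1.2 and bosTau9 and no versions or settings. Per the file headers, the authors deposited, per tile, a methylation difference with its p-value and q-value. No source used here gives the rule by which tiles were listed. The table has no per-sample columns, so depth and precision are unknown and no new test between groups was run.

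Tiles were matched by gene description, and 22 of the 23 symbols used were found on the same chromosome in the RefSeq table (all but ZNF525). Gaps run from the nearest tile edge to the nearest feature edge. A tile passed at q under 0.05. Named are all member tiles, all listed genes of the imprinted, methylation-mark, retrotransposon and neighbour lists, the 3 zinc finger genes with the largest tile of each sign, the nearest listed tiles, and 3 genes most alike per member. Members and lists were chosen with earlier results of these data known. Alternatives were other thresholds, recomputed Benjamini-Hochberg adjustment (checked on simulated p-values), loci and windows. Tables were computed with pandas 2.3.3 and NumPy 2.4.6 under Python 3.11.15, the simulated check used SciPy 1.17.1, and figures were drawn with matplotlib 3.10.9.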

Additional observations from a re-analysis of the deposited data

How the results depend on the processing

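Both PEG10 tiles passed by q under 0.01, by the deposited p and by both recomputed adjustments. With a minimum of 5 percentage points 1 passed, with 10 percentage points 0, and the tiles form 1 locus. These counts are also those of the retrotransposon-derived genes, where PEG10 is the only listed gene. Of the 3 ZNF597 tiles, 2 passed by q under 0.01, 2 by the deposited p and 2 by adjustment within chromosome 25 (an alternative chosen after seeing the data). Adjustment over all listed tiles left 1, minimum differences of 1, 5 and 10 percentage points left 0 each, and the tiles form 1 locus. Imprinted genes had 107 passing tiles of 186, 3 with a minimum of 5 percentage points, 0 with 10, 16 as loci and 8 without ZNF331 (chosen after seeing the data). Zinc finger genes had 123 of 212, 2 with a minimum of 5 percentage points, 0 with 10, 19 as loci and 24 without ZNF331. Over all listed tiles 71.8% passed, 15.4% with a minimum of 5 percentage points and 2.78% with 10. With ZNF331 included, neither list passed more often than that. Without ZNF331, 8 of 10 tiles of the imprinted list passed, and those tiles overlap within genes. For TET2, 2 tiles passed by q, and 0 by q under 0.01, by the deposited p, by either recomputed adjustment or with minimums of 5 or 10 percentage points, with 1 as a locus. Within 50000 bp of ZNF597 there were 3 other tiles, and 0 within 10000 bp. Fewer tiles, or joined tiles, follow from how the minimum differences, loci and windows are built. The deposited q-values of both PEG10 tiles and of all 3 ZNF597 tiles were lower than the recomputed ones, and why was not tested. No paired analysis was possible because the groups share no replicate numbers and no column belongs to a sample. Read depth is unknown, so how far it limits the small ZNF597 differences cannot be told.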

Other observations

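The deposited q-values rose with the deposited p-values within each of the 27 chromosomes, but not over the table as a whole, so tiles on different chromosomes with the same p can have different q-values. The largest p that carried a q under 0.05 was 0.0184 on chromosome 22, 0.115 on chromosome 4, 0.191 on chromosome 25 and 0.503 on chromosome 28. In all, 441 tiles had a q under 0.05 with a p of at least 0.05, the middle ZNF597 tile among them.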
